A study of Mus musculus with 26 samples.

Results

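The potassium channel genes are the 94 of 23337 genes in the count tables whose symbol starts with *Kcn*, followed by lower-case letters and a number. Of these, 93 encode channel subunits, and the remaining gene, *Kcnq1ot1*, is a noncoding RNA transcribed against *Kcnq1*. The subunits comprise 40 voltage-gated alpha subunits, 8 alpha subunits gated by calcium, sodium or pH, 15 inward rectifiers, 14 tandem-pore leak subunits and 16 accessory subunits. RNA-seq covered 2 segments of the epididymis, the initial segment (IS) and the caput, from 5 ArKI and 5 wild-type (WT) mice, and the testis from 3 mice of each genotype. ArKI is the knock-in genotype and WT the normal one, and the knock-in allele is present in every cell of the animal. All mice were C57Bl/6N; 129 hybrid and 3 months old. The comparison asks which of these genes differ between the genotypes in each tissue.

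Potassium channels let K+ leave or enter the cell along its gradient and so set the membrane voltage. In the epididymis the epithelium secretes K+ into the lumen, where sperm are kept quiet until they are released, and the same channels steer the voltage that drives transport of other ions and water. Sperm carry their own potassium channel, built around the product of *Kcnu1*, which opens when the cell becomes alkaline.

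The files hold raw counts of uniquely mapped reads per gene. They were turned into CPM, counts scaled to a common library size, with TMM factors within each tissue. Total counts per sample were 5829074 to 9770625 in the IS, 4125768 to 11913469 in the caput and 14077013 to 21376604 in the testis. A count of 3, taken as the floor, equals 0.313 to 0.512, 0.247 to 0.692 and 0.141 to 0.216 CPM, respectively, and covers counting error only. The initial segment markers summed to 40200 to 44400 CPM in WT IS, 32100 to 37000 CPM in ArKI IS and 954 to 5450 CPM in the caput, and the late germ cell markers to 29200 to 34700 CPM in the testis. ArKI caput sample 2 was the shallowest library. It had the highest summed smooth muscle markers (1640 against 692 to 1190 CPM) and the lowest summed caput markers (55800 CPM) of the caput samples, and the values without it are given where they matter. In whole tissue, fewer cells of a type and less RNA per cell cannot be told apart. Epididymis and testis were sequenced in different batches, and between them the tissue cannot be told apart from the run.

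The low-count filter of edgeR kept 35 of the 94 genes in the IS, 44 in the caput and 55 in the testis. At least 1 tissue kept 67 of them, and all 3 tissues kept 23. No tissue kept the other 27, whose highest count in any sample was 22. None of the 94 genes was at 0 in all samples. Unless stated otherwise, "rose" and "fell" mean an adjusted p below 0.05 (edgeR quasi-likelihood test, Benjamini-Hochberg over all genes tested in that tissue), and the study's own thresholds are a fold change above 2 with an adjusted p below 0.01 in the epididymis or below 0.2 in the testis.

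In WT mice, *Kcnk1* had the highest level per length in both epididymal segments and *Kcne3* in the testis. Levels of different genes are compared here as CPM per kb of exon, scaled over the 13 WT samples. In the IS the highest was *Kcnk1*, a tandem-pore leak channel, at 166 ± 5.07 CPM per kb (SD, n = 5). It was followed by 2 inward rectifiers, *Kcnj15* at 33.9 ± 3.8 and *Kcnj11*, the pore of the ATP-sensitive channel, at 27.1 ± 2.56 CPM per kb. Next came the voltage-gated *Kcnh3* at 22.3 ± 1.58 CPM per kb and the leak channel *Kcnk5* at 10.7 ± 1.15 CPM per kb. Neighbours in this order differed by more than the larger of their SDs.

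In WT caput, *Kcnk1* was again the highest at 210 ± 4.85 CPM per kb (SD, n = 5), then *Kcnh3* at 29.0 ± 4.65 CPM per kb. *Kcnip3*, a calcium-binding partner of voltage-gated channels, stood at 21.9 ± 0.39 CPM per kb. *Kcnj15* at 18.2 ± 2.06, *Kcnq1* at 18 ± 2.75 and *Kcnmb4* at 17.2 ± 1.31 CPM per kb were within their spread of each other. In WT testis the order was led by *Kcne3*, an accessory subunit, at 79.4 ± 9.32 CPM per kb (SD, n = 3). *Kcnmb4*, an accessory subunit of the large-conductance calcium-activated (BK) channel, followed at 47.0 ± 4.3 CPM per kb. The sperm channel gene *Kcnu1* at 39.0 ± 2.19 and the inward rectifier *Kcnj9* at 36.6 ± 2.49 CPM per kb did not differ beyond their spread. *Kcnab2*, a cytoplasmic beta subunit, came next at 10.2 ± 4.04 CPM per kb. *Kcng4* at 9.27 ± 0.561 and *Kcnk5* at 7.49 ± 1.82 CPM per kb lay within that SD, so this place is not settled. Scaled within the tissue, *Kcnab2* was at 50.2 CPM in WT testis sample 1 and at 27.2 and 25.2 CPM in the others.

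**Figure D1:**
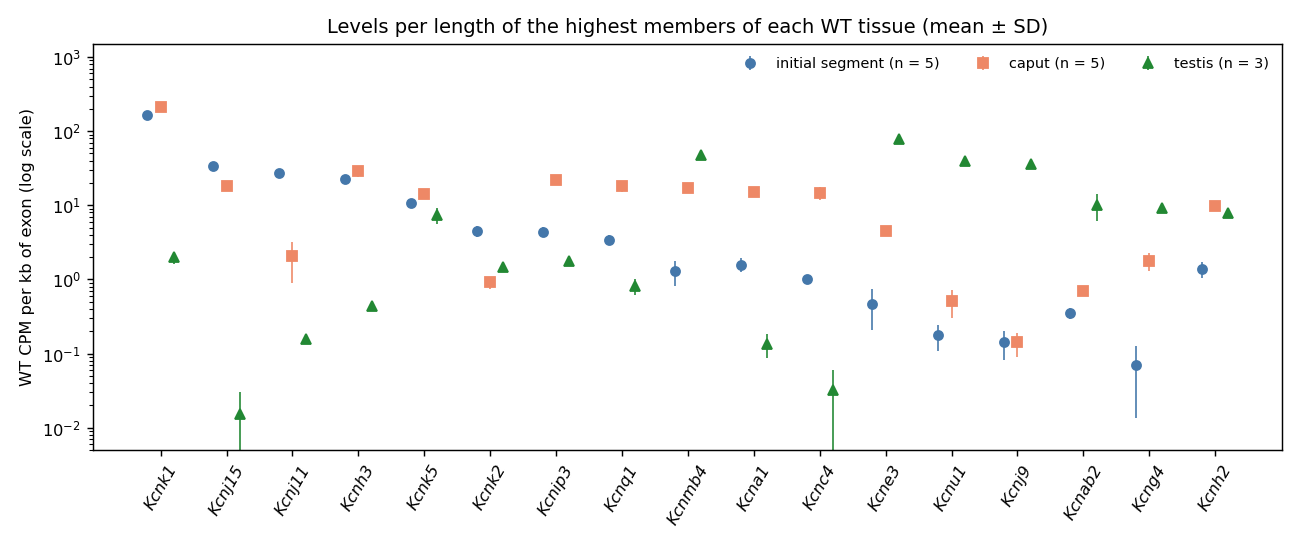
Mean CPM per kb of exon (log axis, bars SD, cut off at the axis where the SD reaches the mean) of the potassium channel genes with the 8 highest levels in each WT tissue. *Kcnk1* is far above the others in the IS and caput and low in the testis, where *Kcne3*, *Kcnmb4*, *Kcnu1* and *Kcnj9* lead.

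Of 63 potassium channel genes tested across the WT tissues, 26 had a higher and 8 a lower caput than IS level (edgeR, adjusted p below 0.05, fold change above 2), beside 12.9% and 9.56% of all genes. The steepest gains from IS to caput among well-measured genes were in *Kcnc4*, a fast voltage-gated subunit (3.69 ± 0.553 and 53.8 ± 10.5 CPM, log2 difference 3.87, adjusted p = 3.8e-12, edgeR), and *Kcna1*, a voltage-gated subunit of axons (7.0 ± 1.5 and 67.7 ± 6.92 CPM, log2 difference 3.29, adjusted p = 2.4e-17, edgeR). *Kcnj11* went the other way, with 85.3 ± 8.04 CPM in the IS but 6.51 ± 3.68 CPM in the caput (log2 difference -3.73, adjusted p = 6.1e-08, edgeR). *Kcnk2*, a leak channel that responds to stretch and fatty acids, was also lower in the caput (18.9 ± 3.19 and 3.84 ± 0.701 CPM, log2 difference -2.30, adjusted p = 9.1e-13, edgeR). Each of these values has n = 5. Their CPM are scaled over the 13 WT samples and so differ from the CPM scaled within a tissue that are given for the genotypes.

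Against the testis the split was broader for all genes. Of the same 63 genes, 28 had a higher and 21 a lower testis than IS level, beside 38.5% and 31.2% of all genes. Set against the caput, 24 had a higher and 24 a lower testis level, beside 38.1% and 31.5% of all genes. *Kcnu1* was at 141 ± 7.89 CPM in the testis (n = 3), 0.632 ± 0.236 CPM in the IS and 1.85 ± 0.754 CPM in the caput (n = 5 each). Its partner *Lrrc52*, which the sperm channel needs, was at 26.2 to 34.1 CPM in WT testis and at most 0.122 CPM in WT epididymis, scaled within each tissue. The log2 difference of *Kcnk1*, testis minus IS, was -6.37 (adjusted p = 1.8e-26, edgeR). The median log2 difference of all genes, testis minus IS, was 0.19 with TMM and -0.29 with upper-quartile factors, and testis minus caput it was 0.16 and -0.34. With upper-quartile factors the numbers with a higher and a lower testis level became 26 and 24 for the IS comparison, beside 33.3% and 38.3% of all genes, and 22 and 30 for that with the caput, beside 32.9% and 39.2%.

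In the IS of ArKI mice, 11 of the 35 potassium channel genes tested rose and 6 fell, beside 15% and 14.6% of all 13434 genes. At the study's thresholds 4 were upregulated (*Kcnc4*, *Kcnt1*, *Kcnmb1*, *Kcnab1*) and 1 was downregulated (*Kcna1*), beside 2.72% and 1.32% of all genes. The median log2 fold change of the tested potassium channel genes was 0.24, where that of all genes was -4.4e-05. An unadjusted p below 0.05 was reached by 19 of the 35, beside 39.7% of all genes.

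The voltage-gated subunits held both the largest rise and the largest fall. *Kcnc4* (chromosome 3, 107438298 to 107460287, minus strand, GRCm38) was at 4.97, 3.89, 3.99, 3.84 and 3.34 CPM in the WT IS samples and at 29.5, 28.8, 21.8, 22 and 26 CPM in the ArKI IS samples. The groups lay far apart, and the 27 to 41 counts of the WT samples stood against 129 to 222 counts. The log2 fold change was 2.68 ± 0.13 (SE, n = 5 each, adjusted p = 1.0e-11, edgeR), or 6.41-fold. *Kcna1* (chromosome 6, 126636463 to 126645801, minus strand) was at 7.52, 8, 5.99, 10.1 and 6.36 CPM in WT IS and at 2.12, 1.13, 1.59, 1.71 and 1.53 CPM in ArKI IS. All ArKI samples were below all WT samples, with 8 to 16 counts against 48 to 71, and the log2 fold change was -2.21 ± 0.21 (adjusted p = 1.7e-07, edgeR).

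Among the other voltage-gated subunits, *Kcnq1*, which forms slow epithelial and cardiac channels with KCNE proteins, rose from 9.81 to 14.3 CPM in WT to 15.2 to 21.8 CPM in ArKI IS (log2 fold change 0.68 ± 0.12, adjusted p = 2.2e-04, edgeR). *Kcnh3* fell by 0.23 on the log2 scale (adjusted p = 0.012, edgeR), with overlapping groups. Of the 11 voltage-gated alpha subunits tested in the IS, 2 rose and 3 fell.

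Of the 6 calcium-, sodium- or pH-gated channel genes tested, 4 rose and 0 fell (edgeR). *Kcnt1*, a sodium-activated channel (chromosome 2, 25863791 to 25918273, plus strand), was at 12, 7.89, 7.99, 8.11 and 8.55 CPM in WT IS and at 17.4, 24.4, 15, 17.9 and 19.1 CPM in ArKI IS. The groups did not overlap, although WT IS sample 1 stood above the other WT samples, and the log2 fold change was 1.07 ± 0.14 (adjusted p = 1.0e-05, edgeR). *Kcnma1*, the pore of the BK channel, rose from 9.0 ± 2.31 to 13.3 ± 1.15 CPM (SD, n = 5 each; log2 fold change 0.55 ± 0.15, adjusted p = 0.0074, edgeR), with groups that overlapped. *Kcnn2*, a small-conductance calcium-activated channel, rose by 0.85 ± 0.18 on the log2 scale (adjusted p = 0.0015, edgeR). *Kcnn4*, the intermediate-conductance channel, rose from 2.7 to 7.24 CPM in WT to 6.1 to 17.6 CPM in ArKI IS (log2 fold change 1.17 ± 0.35, adjusted p = 0.027, edgeR). *Kcnn4* lies outside the rule for named genes and was chosen after its values were seen, as were *Kcnj16* and *Kcnk6* below.

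Of the 8 accessory subunits tested in the IS, 3 rose and 2 fell. *Kcnmb1*, the BK beta subunit of smooth muscle (chromosome 11, 33962955 to 33973641, plus strand), was at 2.91, 3.77, 3.12, 3.84 and 3.55 CPM in WT IS and at 7.69, 4.94, 12.1, 5.29 and 7.41 CPM in ArKI IS. The ArKI samples were all higher and more spread, and the log2 fold change was 1.13 ± 0.22 (adjusted p = 6.8e-04, edgeR). In the same libraries 7 of the 8 smooth muscle markers fell, the opposite direction. Among them, *Acta2* went from 218 ± 12.5 to 114 ± 30.8 CPM and *Myh11* from 188 ± 4.32 to 92.1 ± 24.2 CPM. The 8 markers summed to 3530 to 3770 CPM in WT and 2910 to 3480 CPM in ArKI IS. Most of that sum was *Actg2* (3080 ± 97.4 and 2890 ± 213 CPM), which did not pass the test (adjusted p = 0.18, edgeR). The part of smooth muscle in the *Kcnmb1* values was not tested. *Kcnab1*, a beta subunit that speeds inactivation of voltage-gated channels (chromosome 3, 64949212 to 65378225, plus strand), was at 1.09, 1.26, 2, 2.7 and 1.67 CPM in WT IS and at 4.51, 3.81, 3.9, 2.39 and 2.94 CPM in ArKI IS. Here the groups overlapped by 1 sample of each, at 9 to 34 counts a sample, and the log2 fold change was 1.03 ± 0.26 (adjusted p = 0.0048, edgeR). *Kcnmb4* rose by 0.94 ± 0.31 on the log2 scale (adjusted p = 0.030, edgeR). The call for *Kcnmb4* was lost with limma-voom (adjusted p = 0.053) and without any of 5 single samples (adjusted p 0.069 to 0.087, edgeR).

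Of the 5 inward rectifiers tested in the IS, 2 rose and 0 fell. *Kcnj11* rose from 80.6 to 100 CPM in WT to 105 to 129 CPM in ArKI IS (log2 fold change 0.37 ± 0.066, adjusted p = 3.7e-04, edgeR). *Abcc8*, which encodes a sulfonylurea receptor that joins *Kcnj11* in the ATP-sensitive channel, rose from 1.27 ± 0.35 to 3.75 ± 0.761 CPM (log2 fold change 1.55 ± 0.24, adjusted p = 7.7e-05, edgeR). The other receptor gene, *Abcc9*, fell by 0.65 ± 0.2 on the log2 scale (adjusted p = 0.016, edgeR). *Kcnj16* went from 6.68 to 9.86 CPM in WT to 11.3 to 26.4 CPM in ArKI IS (log2 fold change 1.0 ± 0.2, adjusted p = 0.0021, edgeR), just short of the fold limit. *Kcnip3* fell from 13 to 18.6 CPM in WT to 6.49 to 10.9 CPM in ArKI IS (log2 fold change -0.72 ± 0.13, adjusted p = 3.8e-04, edgeR). *Kcne4*, an accessory subunit that dampens voltage-gated channels, fell by 0.82 ± 0.2 on the log2 scale (adjusted p = 0.0035, edgeR), and the leak channel *Kcnk6* by 0.62 ± 0.21 (adjusted p = 0.030, edgeR). Beside these falls, the 5 endothelial markers summed to 122 to 149 CPM in WT and 85.7 to 102 CPM in ArKI IS and all fell, and 3 of the 5 basal cell markers fell. The part of these cell types in the falls was not tested.

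The most abundant IS channel, *Kcnk1*, was at 403 ± 12.4 CPM in WT and 381 ± 31.0 CPM in ArKI IS, and *Kcnj15* at 212 ± 23.8 and 228 ± 21.2 CPM, and neither passed the test (adjusted p = 0.28 and 0.36, edgeR). In a fit that shared the spread over all 4 epididymal groups, *Kcnj11* and *Kcnh3* no longer passed (adjusted p = 0.27 and 0.076, edgeR). At the study's thresholds the IS count of 5 became 8 in that fit and 8 without WT IS sample 3. *Kcnab1* no longer met them without any 1 of 5 samples (ArKI 1 or 3, WT 1, 2 or 5), *Kcnmb1* without ArKI sample 3 (log2 fold change 0.89) and *Kcnt1* without ArKI sample 2 (log2 fold change 0.96).

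**Figure D2:**
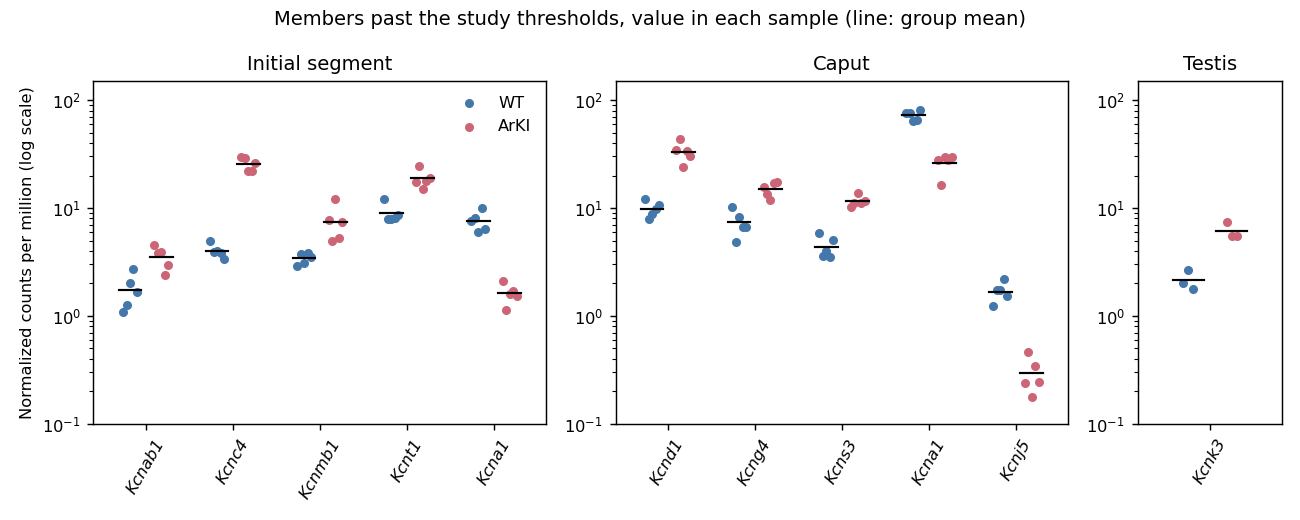
CPM in each sample (points, log axis) and group means (lines) of 11 gene and tissue pairs past the study's thresholds in the IS, caput and testis, WT in blue and ArKI in red. The groups are separate for all of them except *Kcnab1* in the IS.

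In the caput of ArKI mice, 12 of the 44 genes tested rose and 7 fell, beside 13.7% and 14% of all 13726 genes. At the study's thresholds 4 genes were upregulated, among them *Kcnd1*, *Kcns3* and *Kcng4*, and 3 downregulated, among them *Kcna1* and *Kcnj5*, beside 2.43% and 2.55% of all genes. The median log2 fold change was 0.055 for the tested potassium channel genes and 0.0017 for all genes, and 24 of the 44 had an unadjusted p below 0.05, beside 37.7% of all genes. In the same libraries 3 of the 5 clear and narrow cell markers rose and 1 fell, with sums of 299 to 345 CPM in WT and 283 to 384 CPM in ArKI caput. Of the 5 endothelial markers 2 rose, with sums of 49.3 to 57.3 and 60.7 to 89.3 CPM. Of the 4 immune cell markers tested 1 rose, and that list summed to 51.8 to 65.5 CPM in WT and 68.4 to 119 CPM in ArKI caput. ArKI caput sample 2 had the highest sum of both lists, and the next highest were 69.9 and 90.6 CPM. The part of these cell types in the channel values was not tested. Without ArKI caput sample 2, the counts were 7 at the study's thresholds, and 13 rising and 7 falling genes.

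All genes upregulated at the study's thresholds were voltage-gated subunits. *Kcnd1*, which carries a transient, rapidly inactivating current (chromosome X, 7823759 to 7838278, plus strand), was at 12.2, 7.92, 8.88, 9.86 and 10.6 CPM in WT caput and at 34.4, 43.8, 24, 33.7 and 30.6 CPM in ArKI caput. The ranges were wide apart, and the log2 fold change was 1.72 ± 0.15 (SE, n = 5 each, adjusted p = 3.1e-06, edgeR), or 3.29-fold. Its relative *Kcnd3* moved the other way, from 23.1 to 38.0 CPM in WT to 14.6 to 18 CPM in ArKI caput (log2 fold change -0.90 ± 0.12, adjusted p = 4.0e-05, edgeR). *Kcnip3*, whose protein binds channels of this *Kcnd* family, fell from 74.6 to 78.0 CPM to 42.4 to 60.4 CPM (log2 fold change -0.56 ± 0.069, adjusted p = 1.1e-05, edgeR).

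*Kcns3* and *Kcng4* encode silent subunits, which form no channel alone and act by joining other voltage-gated subunits. *Kcns3* (chromosome 12, 11090202 to 11151168, minus strand) was at 5.84, 3.58, 3.97, 3.53 and 5.01 CPM in WT caput and at 10.3, 11.1, 13.7, 11.2 and 11.6 CPM in ArKI caput. *Kcng4* (chromosome 8, 119623854 to 119635680, minus strand) was at 10.3, 4.88, 8.17, 6.69 and 6.65 CPM in WT caput and at 15.5, 13.6, 11.8, 16.9 and 17.3 CPM in ArKI caput. Both had separate groups, with log2 fold changes of 1.40 ± 0.15 (adjusted p = 2.1e-06, edgeR) and 1.04 ± 0.17 (adjusted p = 2.4e-04, edgeR). *Kcng4* fell short of the fold limit without WT sample 2 or 5 or ArKI sample 4 or 5 (log2 fold change 0.91 to 1.00).

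*Amigo1*, which encodes a membrane protein that accompanies voltage-gated potassium channels, fell in both segments, with log2 fold changes of -0.64 ± 0.061 (caput, adjusted p = 6.2e-07, edgeR) and -0.64 ± 0.13 (IS, adjusted p = 0.0013, edgeR).

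The genes that fell at the study's thresholds included a voltage-gated subunit and an inward rectifier. *Kcna1* was at 76.2, 75.7, 64.3, 66 and 81.6 CPM in WT caput and at 27.6, 16.4, 29.6, 27.7 and 29.4 CPM in ArKI caput. All ArKI samples were far below the WT samples and sample 2 was the lowest, and the log2 fold change was -1.44 ± 0.12 (adjusted p = 3.4e-06, edgeR) and -1.34 without that sample. *Kcnj5*, an inward rectifier opened by G proteins (chromosome 9, 32314706 to 32344380, minus strand), was at 1.23, 1.74, 1.75, 2.19 and 1.52 CPM in WT caput and at 0.241, 0.461, 0.177, 0.343 and 0.247 CPM in ArKI caput. The ArKI values rest on 2 to 4 counts a sample against 12 to 18 in WT, and the log2 fold change was -2.56 ± 0.34 (adjusted p = 2.4e-05, edgeR).

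Of the other rises in the caput, *Kcnk2* went from 3.17 to 4.9 CPM in WT to 6.08 to 9.09 CPM in ArKI (log2 fold change 0.91 ± 0.16, adjusted p = 3.1e-04, edgeR), and *Kcne4* from 7.11 to 9.62 to 12.1 to 15.5 CPM (log2 fold change 0.64 ± 0.11, adjusted p = 3.8e-04, edgeR). *Kcnk5*, *Kcne3*, *Kcnmb4* and *Kcnn2* rose by smaller steps, with log2 fold changes of 0.37, 0.50, 0.29 and 0.59 and overlapping groups. *Kcnn2* no longer passed without WT sample 3 or without ArKI sample 1 (adjusted p = 0.054 and 0.070, edgeR), and *Kcnmb4* no longer passed in the fit over all 4 epididymal groups (adjusted p = 0.094, edgeR). *Kcnab2*, which was highest in the testis, fell from 2.56 to 3.5 CPM in WT to 0.963 to 2.23 CPM in ArKI caput (log2 fold change -0.97 ± 0.23, adjusted p = 0.0040, edgeR). The sperm and late germ cell markers moved with it: their sum was 375 to 561 CPM in WT and 114 to 194 CPM in ArKI caput, and 14 of the 15 tested fell. The sperm channel gene *Kcnu1* was at 1.23 to 3.25 CPM in WT and 1.08 to 1.85 CPM in ArKI caput and did not pass the test (adjusted p = 0.16, edgeR). *Kcne3*, *Kcng4* and *Kcnmb4* were also higher in WT testis than in WT caput (log2 difference 4.13, 2.36 and 1.45, edgeR) but rose in ArKI caput. The part of sperm RNA in these values was not tested.

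Among genes with high levels in the caput, *Kcnk1* (504 ± 11.8 and 526 ± 8.47 CPM), *Kcnh3* (115 ± 18.6 and 136 ± 9.47 CPM) and *Kcnj15* (113 ± 12.7 and 117 ± 9.57 CPM) did not pass the test (adjusted p = 0.35, 0.11 and 0.69, edgeR), although *Kcnh3* passed without WT sample 1 (log2 fold change 0.32, adjusted p = 0.0082). *Kcnma1* did not pass either, at 18.1 ± 1.51 and 20.7 ± 1.44 CPM (adjusted p = 0.088, edgeR), but passed with scaling by library size only (adjusted p = 0.047) and without WT sample 5 (adjusted p = 0.043). The IS channel gene *Kcnj11* varied widely inside each caput group, at 4.2, 3.58, 12.8, 9.37 and 5.01 CPM in WT and 7.7, 1.61, 21.4, 11.7 and 9.71 CPM in ArKI caput. The initial segment markers in the same libraries summed to 954, 2100, 5100, 5450 and 1660 CPM in WT and 1200, 1120, 3420, 2070 and 1420 CPM in ArKI caput. In each genotype the 2 libraries with the highest *Kcnj11* were also the 2 with the most initial segment marker RNA, whose part in these values was not tested.

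The effect of the genotype differed between the segments for 19 of 51 potassium channel genes (interaction of segment and genotype, adjusted p below 0.05, edgeR), beside 15.1% of all genes. On a scale shared by the 20 epididymal samples, *Kcnc4* was at 3.99 ± 0.587 CPM in WT IS, 25.5 ± 3.62 in ArKI IS, 58.0 ± 11.4 in WT caput and 52.8 ± 3.83 in ArKI caput (SD, n = 5 each). Its IS level in ArKI mice thus lay between the WT levels of the IS and the caput, and its caput levels overlapped. In the caput alone its log2 fold change was -0.13 (adjusted p = 0.50, edgeR) and, without WT sample 2, -0.24 (adjusted p = 0.024). The effect in the caput minus that in the IS was -2.82 ± 0.21 on the log2 scale (adjusted p = 8.8e-09, edgeR). *Kcnt1* had the same order, at 8.88 ± 1.73, 18.7 ± 3.5, 44.7 ± 6.49 and 41.1 ± 2.34 CPM, with a difference of effects of -1.20 ± 0.17 (adjusted p = 3.0e-05, edgeR). *Kcnq1* did as well, at 11.2 ± 1.74, 18.1 ± 2.39, 58.7 ± 9.03 and 54.3 ± 5.84 CPM, with a difference of -0.81 ± 0.17 (adjusted p = 0.0014, edgeR). The order was not shared by all genes with a higher level in WT caput than in WT IS. Of these, *Kcna1* and *Kcnip3* fell in ArKI IS (log2 fold change -2.21 and -0.72), whereas *Kcnab1*, *Kcnma1* and *Kcnmb4* rose there. The comparison of WT segments and that of genotypes in the IS share the WT IS samples. In the same IS libraries 4 of the 6 initial segment markers fell and 1 rose in ArKI mice. Of the 4 caput markers tested there 1 rose and 1 fell, and the sum over all 5 was 59400 to 68600 CPM in WT and 59200 to 86000 CPM in ArKI IS. The part of these shifts in the channel values was not tested.

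*Kcne4* moved in opposite directions in the segments and passed the test in both. It was at 6.04 ± 1.27, 3.44 ± 0.748, 8.62 ± 1.01 and 13.6 ± 1.55 CPM in WT IS, ArKI IS, WT caput and ArKI caput (difference 1.46 ± 0.22, adjusted p = 3.3e-05, edgeR). *Kcns3* and *Kcnk2* rose in the caput without passing the test in the IS, with differences of 1.19 ± 0.2 (adjusted p = 1.6e-04, edgeR) and 1.13 ± 0.21 (adjusted p = 3.7e-04, edgeR).

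*Kcna1* and *Kcnip3* fell in both segments, and for *Kcna1* the effects were not shown to differ (difference 0.77 ± 0.28, adjusted p = 0.064, edgeR). Genes that were low in one segment also entered the interaction. *Kcnj3*, an inward rectifier that partners with *Kcnj5*, had 1 to 3 counts in each WT IS sample and 9 to 12 in each ArKI IS sample, too few for the test within the IS, and 3 to 9 against 0 to 4 counts in the caput. The difference of effects was -4.14 ± 0.64 (adjusted p = 5.0e-05, edgeR). For *Kcnj5* it was -3.50 ± 0.71 (adjusted p = 0.0010, edgeR), from few counts in the IS.

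**Figure D3:**
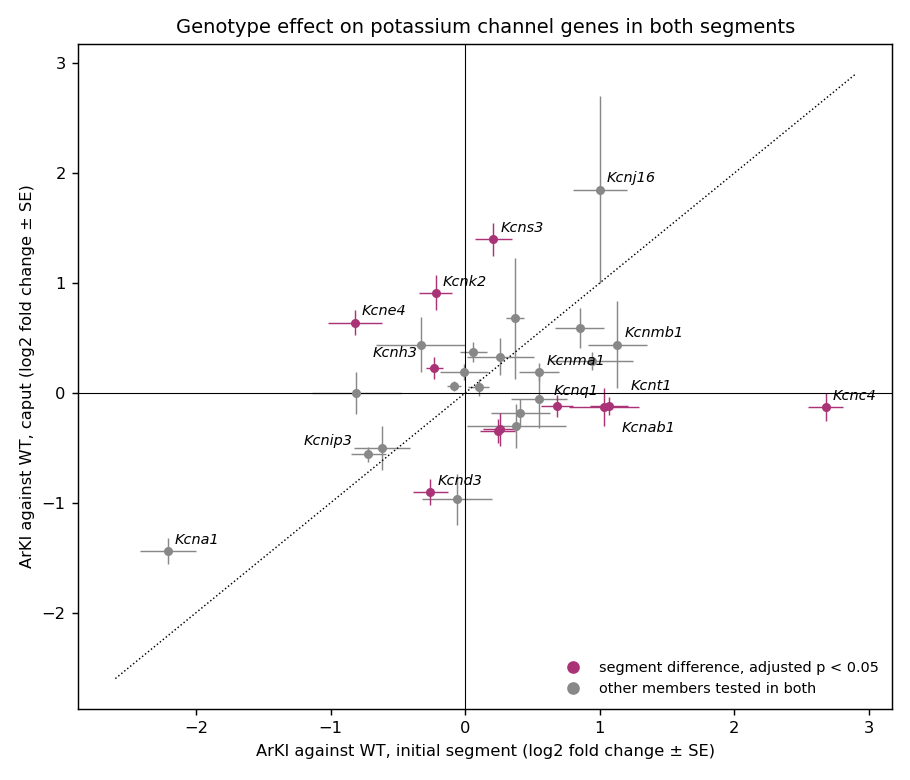
Log2 fold change of ArKI against WT in the IS (x) and in the caput (y), with SE bars, for 31 of the 32 potassium channel genes tested in both segments. Purple points, of which *Kcnj2* and *Kcnq1ot1* carry no name, differ between segments at an adjusted p below 0.05, and the dotted line marks equal effects. *Kcne4* lies in the upper left and *Kcna1* in the lower left.

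**Figure D4:**
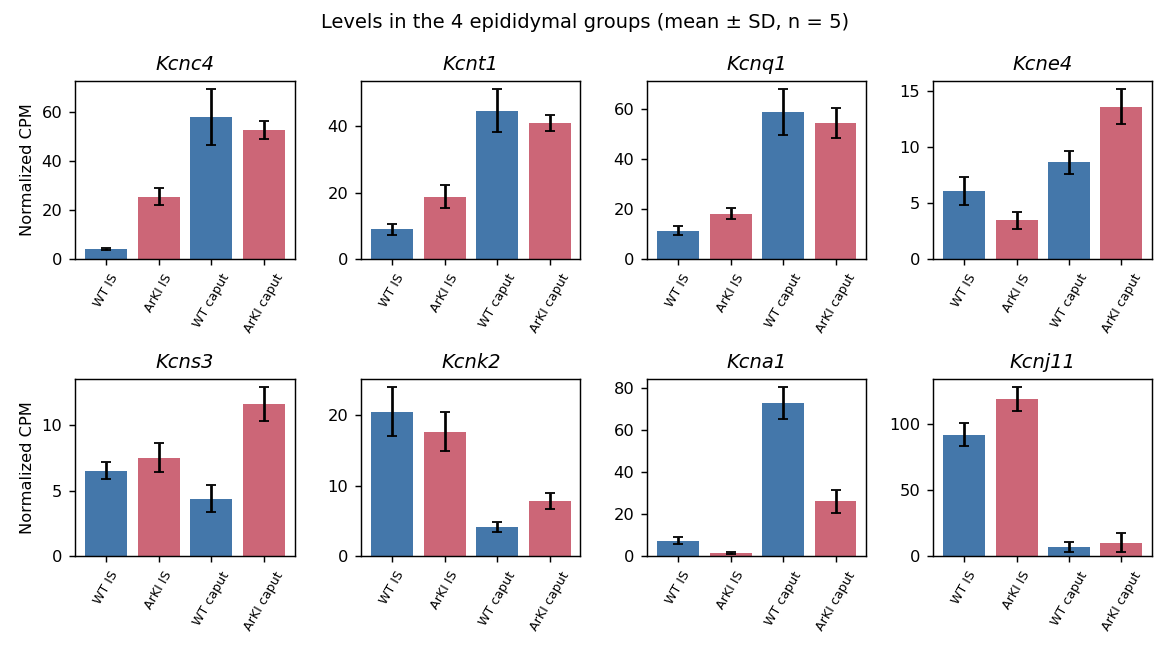
CPM (bars mean, error bars SD, n = 5) in WT and ArKI IS and caput, on one scale over the 20 samples, for 8 potassium channel genes. *Kcnc4*, *Kcnt1* and *Kcnq1* climb in ArKI IS toward the caput level, *Kcne4* changes in opposite directions, and *Kcna1* falls in both segments.

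In the testis, 2 of the 55 potassium channel genes tested rose and 0 fell in ArKI mice (edgeR), beside 1.64% and 0.328% of all 15838 genes. DESeq2 and limma-voom gave the same counts of 2 and 0. An unadjusted p below 0.05 was reached by 5 of the 55, beside 13.1% of all genes. At the study's thresholds for this tissue, 1 gene was upregulated, beside 0.751% of all genes, and 0 were downregulated, beside 0.0821%. The median log2 fold change was -0.10 for the tested potassium channel genes and -0.0023 for all genes.

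Both rises were tandem-pore leak channels. *Kcnk3*, an acid-sensitive leak channel (chromosome 5, 30588170 to 30625270, plus strand), was at 2.04, 2.66 and 1.78 CPM in WT testis and at 7.39, 5.45 and 5.54 CPM in ArKI testis. The groups were apart, with 25 to 37 against 96 to 118 counts, and the log2 fold change was 1.5 ± 0.19 (SE, n = 3 each, adjusted p = 3.4e-05, edgeR). *Kcnk1* (chromosome 8, 125993655 to 126030685, plus strand) was at 4.32, 3.52 and 2.99 CPM in WT and at 5.64, 6.16 and 6.58 CPM in ArKI testis. These groups were also separate, with a log2 fold change of 0.75 ± 0.16 (adjusted p = 0.011, edgeR). The call for *Kcnk1* was lost without WT sample 3, ArKI sample 2 or ArKI sample 3 (adjusted p = 0.11, 0.052 and 0.054, edgeR), so that only *Kcnk3* rose there.

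The genes with the highest testis levels did not pass the test. *Kcne3* was at 110 ± 11.6 and 108 ± 5.18 CPM in WT and ArKI testis (adjusted p = 0.95, edgeR), and *Kcnu1* at 114 ± 5.39 and 105 ± 7.57 CPM (adjusted p = 0.50, edgeR). *Kcnj9* was at 111 to 125 CPM in WT and 90.3 to 107 CPM in ArKI testis, with separate groups and an adjusted p of 0.081 (edgeR). It passed without ArKI sample 2 (adjusted p = 0.043, edgeR) and with the low-count filter relaxed to 1 count (adjusted p = 0.028). The late germ cell markers summed to 29200 to 34300 CPM in WT and 31500 to 34700 CPM in ArKI testis, and 0 of the 16 passed the test. The immune cell markers summed to 18.2 to 21.8 CPM in WT and 23.7 to 30.1 CPM in ArKI testis, and 1 of the 5 tested rose. Their part in the channel values was not tested.

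Other genes of potassium transport and channel partners, a list of 34, were set beside the channels. In the IS 5 of the 20 tested rose and 8 fell, in the caput 5 of 22 rose and 6 fell, and in the testis 3 of 28 rose and 0 fell. The shares of all genes that rose and fell were 15% and 14.6% in the IS, 13.7% and 14% in the caput and 1.64% and 0.328% in the testis. *Atp4a*, a catalytic subunit of the H+/K+ pump, fell in the caput from 211 ± 40.8 to 76.8 ± 17.4 CPM (log2 fold change -1.46 ± 0.21, adjusted p = 8.3e-04, edgeR). *Atp12a*, the non-gastric H+/K+ pump, rose there from 3.37 ± 1.16 to 7.35 ± 1.52 CPM (log2 fold change 1.10 ± 0.22, adjusted p = 0.0012, edgeR). *Atp1a4*, the pump subunit of sperm, fell in the caput from 3.04 to 5.26 CPM in WT to at most 0.685 CPM in ArKI (log2 fold change -3.51 ± 0.4, adjusted p = 4.6e-06, edgeR) and stood at 862 ± 7.45 and 830 ± 57.3 CPM in WT and ArKI testis.

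Exons of some of these genes overlap genes on the opposite strand, and whether the counting used strand is not given in the sources used here. The overlap was summed over all exon entries of the other genes, so that a base can count more than once. By that sum it is 1621 bases for *Kcnj3*, 1029 for *Kcnmb4*, 1016 for *Kcnma1*, 891 for *Kcnn2* and 719 for *Kcnk2*, whose counts could hold reads of either gene. *Kcnc4*, *Kcna1*, *Kcnt1*, *Kcnmb1*, *Kcnd1*, *Kcns3*, *Kcng4*, *Kcnj5* and *Kcnk3* have no such overlap.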

How the data were processed

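RNA-seq libraries of 26 samples were analysed: 5 per genotype from the IS, 5 from the caput and 3 from the testis. The authors demultiplexed with bcl2fastq 1.8.4, aligned reads to mm10 with STAR, counted uniquely mapped reads on RefSeq genes with Subread 1.5.1, and deposited raw counts with no normalization. The sources differ on whether the library kit kept strand. Counts were tested by tissue in R 4.3.3 with edgeR 4.0.16: filterByExpr (minimum count 10, total 15), TMM, robust quasi-likelihood, Benjamini-Hochberg over all genes. The interaction used the 20 epididymal samples and tissue contrasts the 13 WT samples. The study's ROTS test was not run. Alternatives were limma 3.58.1 (voom), DESeq2 1.42.0, other scaling, filters, the replicate block and left-out samples. The fits were tested on simulated data. Exon lengths came from GENCODE vM21 and positions from RefSeq (GRCm38.p6), and figures from matplotlib 3.10.9. Each gene position covers the whole gene. The genes and lists were chosen with earlier results of these data known. Named genes were those past the study's thresholds, the 8 smallest adjusted p per tissue, the 10 smallest for the interaction, the 5 highest WT levels per tissue, and *Kcna1*, *Kcnu1*, *Kcnma1* and *Kcnmb1*, 30 in all. Some items are not reported here.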

Additional observations from a re-analysis of the deposited data

Results flagged for a closer look

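In groups of 5 samples, 7 of 96 sets of values had 1 sample farther from the rest than Dixon's 95% limit of 0.71 for the gap over the range. Chance at 1 in 20 gives 4.8. *Kcna1* was lowest in ArKI caput sample 2 (16.4 against 27.6 to 29.6 CPM, ratio 0.847), the shallowest library. *Kcnab2* was highest in ArKI IS sample 3 (2.31 against 1.19 to 1.41 CPM, ratio 0.805) and lowest in WT IS sample 4 (1.14 against 1.62 to 1.77 CPM, ratio 0.763). *Kcnj3* was highest in ArKI IS sample 4 (2.05 against 1.19 to 1.41 CPM, ratio 0.745). *Kcnmb1* was highest in WT caput sample 4 (2.68 against 0.584 to 0.976 CPM, ratio 0.813). WT IS sample 1 was highest for *Kcnq1* (14.3 against 9.81 to 11.1 CPM, ratio 0.716) and for *Kcnt1* (12 against 7.89 to 8.55 CPM, ratio 0.839).

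The genotype effect differed between the segments by the interaction test (edgeR, adjusted p below 0.05) for 15 named genes, of which 13 are given. As the log2 effect in the caput minus that in the IS, it was negative for *Kcnj3* (-4.14), *Kcnj5* (-3.50), *Kcnc4* (-2.82), *Kcnt1* (-1.20), *Kcnab1* (-1.16), *Kcnq1* (-0.81) and *Kcnd3* (-0.65). It was positive for *Kcng4* (2.66), *Kcne4* (1.46), *Kcne3* (1.30), *Kcns3* (1.19), *Kcnk2* (1.13) and *Kcnh3* (0.46). *Kcnj3*, *Kcnj5*, *Kcng4* and *Kcne3* did not pass the count filter in the IS alone.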

How the results depend on the processing

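For the named genes, 1123 values over all alternatives kept their direction and side of the threshold, 14 lost a call, 7 gained one and 21 changed sign. None of the values that changed sign passed the test in either fit. With single samples left out, the log2 fold change ranged in the IS from -0.25 to 0.02 for *Kcnab2* and from 0 to 0.13 for *Kcnk5*, and in the caput from -0.01 to 0.09 for *Kcnj15*. In the testis it ranged from -0.03 to 0.17 for *Kcnab1*, -0.02 to 0.56 for *Kcnab2*, -0.46 to 0.08 for *Kcnd1*, -0.06 to 0.07 for *Kcne3* (0 with scaling by library size only), -0.04 to 0.12 for *Kcnip3*, -0.17 to 0.01 for *Kcnk2*, -0.07 to 0.25 for *Kcnk5*, -0.03 to 0.14 for *Kcnma1*, -0.09 to 0.02 for *Kcnmb4* and -0.31 to 0.04 for *Kcnt1*. *Kcnd3* in the IS passed only without WT sample 5 (adjusted p = 0.017, edgeR). At the study's thresholds the 5 IS genes became 9 with every gene of at least 1 count, 8 with all epididymal groups in one fit and 4 to 8 with 1 sample left out (8 without WT sample 3). The 7 caput genes that fell became 4 with at least 10 counts in every sample, and the testis count of 1 became 2 with every gene of at least 1 count. The 2 testis rises became 1 to 2 with 1 sample left out, and the 0 falls 0 to 1 (1 without ArKI sample 2) and 1 with every gene of at least 1 count. With that filter the 24 genes higher in WT testis than in WT caput became 41. The filters alter which genes are tested, and otherwise the cause was not tested. The interaction count was 14 to 19 with 1 sample left out, an alternative chosen after seeing the data. Whether equal replicate numbers mark the same mouse is not given in the sources used here. Between genotypes, the deviations of same-numbered samples from the group means correlated at -0.095 to 0.20 in the IS, -0.19 to 0.20 in the caput and -0.0048 to 0.056 in the testis, and samples correlated best with their own number in 2 of 5, 1 of 5 and 2 of 3 cases. Between IS and caput they correlated at -0.012 to 0.19 in WT and -0.15 to 0.21 in ArKI mice, with a best match to the own number in 3 of 5 and 2 of 5 cases. The number was therefore not used as a pairing, and the interaction treats the segments as separate samples. With the replicate block the counts at the study's thresholds were 5, 7 and 1, and the interaction count was 21 in place of 19. Depth limits the low genes: *Kcnj5* in ArKI caput and *Kcnj3* in WT IS lie near the floor of 3 counts.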
